A study of Homo sapiens with 6 samples.

Results

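The genes described here are 10 immediate early genes outside the AP-1 family: the transcription factor genes EGR1, SRF, KLF4, KLF6 and MYC, the feedback regulators ZFP36 and DUSP1, and IER2, IER3 and IER5. They were taken by gene symbol from a table of raw read counts, where each of the 10 symbols had 1 row among 57445 rows that name a gene. All 10 were among the 17129 genes tested. RNA was sequenced in H358 cells, a long-established line from a human lung tumour. The labels give 3 groups of 2 libraries: clone C1 and clone C2, which they call isogenic and list with A273V on both copies of BRMS1v2, and the parental cells, listed as BRMS1 WT (WT). All groups share the line and a medium of RPMI with 10% serum. The labels name no starvation and no growth factor pulse, so the values are taken as levels in medium with serum and not after a known induction. Each clone is a clonal line, how the clones were made is not given in the sources used here, and nothing says that libraries of a group are separate cultures, so p-values measure only the spread between these libraries.

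Immediate early genes are switched on within minutes of a growth factor signal without new protein synthesis. ERK activates the ternary complex factors, such as ELK1, which sit with SRF on CArG boxes in front of genes such as EGR1. The transcripts are short-lived, and some products close the circuit: DUSP1 removes phosphate from MAP kinases, and ZFP36 speeds the decay of mRNAs with AU-rich elements.

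Promoter windows for 8 of the 10 genes were matched by symbol in RefSeq (build GRCh38.p14). Those of EGR1 and SRF are shown because they hold the same motif in front of the gene that varied most and the gene that varied least, and that of DUSP1 because its level ran opposite to that of EGR1 between replicate numbers. Each is the 250 bases before the annotated start, 5′ to 3′ on the gene's strand, and capitals mark CArG boxes in EGR1 and SRF and a cyclic AMP response element (TGACGTCA) in DUSP1.
EGR1, chr5:138465229-138465478, plus strand: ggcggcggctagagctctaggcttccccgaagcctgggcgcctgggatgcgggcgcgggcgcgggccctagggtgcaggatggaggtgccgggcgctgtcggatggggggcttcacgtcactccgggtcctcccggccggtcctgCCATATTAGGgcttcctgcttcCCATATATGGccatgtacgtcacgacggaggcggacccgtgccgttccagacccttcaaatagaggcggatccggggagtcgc
SRF, chr6:43171019-43171268, plus strand: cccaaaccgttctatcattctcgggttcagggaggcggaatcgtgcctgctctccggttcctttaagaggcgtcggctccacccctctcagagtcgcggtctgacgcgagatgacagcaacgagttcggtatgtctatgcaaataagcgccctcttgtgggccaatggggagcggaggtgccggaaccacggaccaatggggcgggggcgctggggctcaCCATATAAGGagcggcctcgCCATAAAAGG
DUSP1, chr5:172771196-172771445, minus strand: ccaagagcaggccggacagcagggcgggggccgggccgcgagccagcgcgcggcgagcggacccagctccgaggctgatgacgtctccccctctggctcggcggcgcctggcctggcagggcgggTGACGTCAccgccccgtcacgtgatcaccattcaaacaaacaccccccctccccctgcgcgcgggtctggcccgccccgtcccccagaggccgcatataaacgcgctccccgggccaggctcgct
The EGR1 window held 2 CArG boxes, whose first bases lay at -105 and -83 from the start, and the SRF window held 2, at -30 and -10. A second annotated start of SRF had none in its window. Among 35116 windows of this length in the table, 1.16% held at least 1 CArG box and 0.0313% held at least 2, on either strand. The DUSP1 window held 1 cyclic AMP response element, at -125, a motif found in 1.65% of windows. No CArG box or cyclic AMP response element was found in the windows of IER2, IER5, ZFP36, KLF4 or KLF6. Among these, KLF4 also ran opposite to EGR1 between replicate numbers. A match is a description of letters only, and binding was not measured.

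Gene counts ran from 27527867 to 37146270 per library. Intervals below are for 1 gene at a time. Within each of the 3 groups, replicates 1 and 2 lay on opposite sides of the leading principal component, which held 47.6% of the variance. Values from a fit with this number as a block are called blocked and stand beside the unblocked ones where they change a call. EPCAM, an epithelial marker, stood between 582 and 965 CPM, and the lung factor NKX2-1 between 65.1 and 155 CPM, while the lung secretory gene SCGB1A1 had 0 counts in every library and SFTPB at most 1. With the block, EPCAM was higher in the mean of the clones (log2 difference 0.50, adjusted p 0.027) and the lung protease gene NAPSA was lower in C1 (-1.04, adjusted p 0.033) and in the mean of the clones (-0.92, adjusted p 0.021), at 3.02 and 3.87 CPM in C1, 2.88 and 5.6 in C2, and 6.08 and 8.21 in WT. Unblocked, 0 of the cell type markers tested were called in C1, C2 or the mean of the clones. The leukocyte gene PTPRC had between 3 and 13 counts. Summed levels of 5 fibroblast, 5 leukocyte and 2 endothelial genes spanned 39.3 to 70.6, 2.56 to 5.02 and 2.08 to 3.81 CPM. PECAM1, also on the endothelial list, had no row under that symbol. Of these genes, CDH5 (endothelial) was higher in C1 with the block (log2 difference 1.82, adjusted p 0.021), and COL1A1 (0.64, adjusted p 0.036) and CD14 (1.19, adjusted p 0.0066) were higher in replicate 2; their part in the results was not tested. CPM here is counts scaled to the library size with TMM factors (trimmed mean of M values).

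IER3 was the most abundant of the 10 per length of transcript. On the scale of CPM per kilobase of merged exons, its level averaged 115 over the 6 libraries (range 74 to 153), above every library of every other member. KLF4 followed at 30.5 (21.2 to 42.8), then IER5 at 24.7 (22.3 to 28.4), SRF at 20.1 (18.3 to 21.7), MYC at 19 (14.8 to 32.6), IER2 at 17 (15 to 18.3) and ZFP36 at 16.3 (10.5 to 20.2), and neighbours in this order overlapped, except that every IER5 library lay above every SRF library. KLF6 at 8.61 (6.28 to 10.3), DUSP1 at 5.51 (3.29 to 9.23) and EGR1 at 5.12 (1.03 to 12.7) were lowest and overlapped one another; every KLF6 library lay just below the lowest ZFP36 library. Exon lengths came from GENCODE 29, and rare exons in it lower the values of long genes such as KLF6.

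EGR1 stood out in spread and not in level. Its highest library had 12.3 times the CPM of its lowest, a range of 3.60 on the log2 scale that exceeded that of 98.5% of tested genes and of 99% of the 1770 genes of like level (mean log2 CPM within 0.5). SRF, a factor known to bind CArG boxes, had a highest library only 1.19 times its lowest. Its range was narrower than that of all but 2.76% of tested genes and all but 5.51% of the 2158 genes of like level. IER2 (1.22 times) and IER5 (1.27 times) were nearly as even, and DUSP1 (2.80 times), MYC (2.20 times), IER3 (2.06 times), KLF4 (2.02 times), ZFP36 (1.93 times) and KLF6 (1.64 times) lay between. The median range over all tested genes was 0.83 on the log2 scale.

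**Figure D1:**
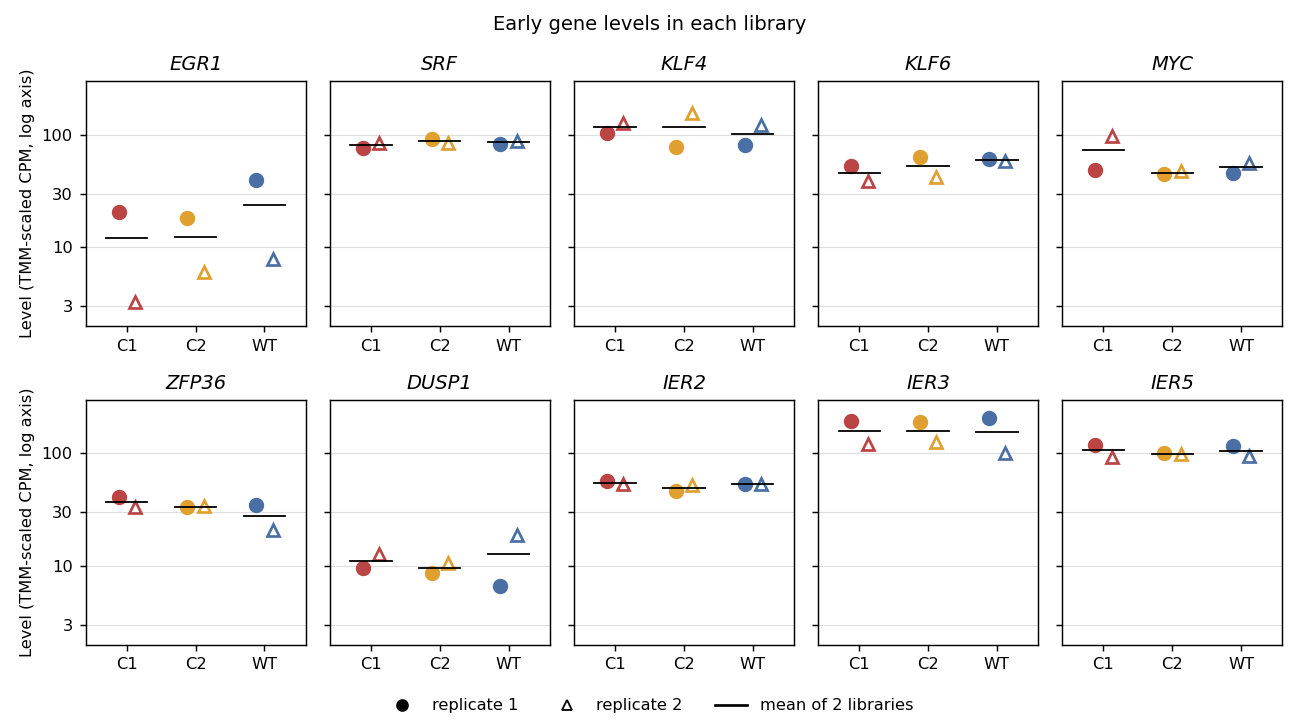
CPM of the 10 genes (vertical axis, log scale) in each library of C1, C2 and WT, with circles for replicate 1, triangles for replicate 2 and a bar at the mean of 2 libraries. EGR1 spans 3.24 to 39.9 CPM with replicate 2 below replicate 1 in every group, while SRF stays between 76.8 and 91.4 CPM.

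EGR1, the zinc finger factor ENSG00000120738.7, was lower in C1 than in WT at each replicate number. It had 735 and 97 counts in C1 (replicates 1 and 2), 524 and 196 in C2, and 1248 and 236 in WT. On the CPM scale this was 20.8 and 3.24 in C1, 18.4 and 6.07 in C2, and 39.9 and 7.94 in WT. Within number 1 the 2 clone libraries were close to each other and below WT, within number 2 C1 was lowest and C2 lay nearer to WT, and the groups overlapped once the numbers were pooled.

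Group means of EGR1 were 12 ± 12.4 CPM in C1, 12.2 ± 8.71 in C2 and 23.9 ± 22.6 in WT (SD, n = 2 each). Without the block, edgeR put C1 at -0.99 relative to WT on the log2 scale (SE 1.1, 95% interval -3.69 to 1.71) with adjusted p 0.93. For C2 this was -0.97 (SE 1.1, -3.67 to 1.73), with adjusted p 0.97. Blocked, EGR1 fell in C1, with a log2 difference of -1.08 (SE 0.25, -1.62 to -0.53, adjusted p 0.024), a level 2.11-fold lower. In C2 the blocked difference was -0.75 (SE 0.25, -1.30 to -0.20, adjusted p 0.12). The blocked mean of both clones against WT was -0.91 (SE 0.21, adjusted p 0.018), against -0.98 unblocked (adjusted p 0.82). C2 against C1 gave 0.32 blocked (-0.23 to 0.88, adjusted p 1), so a difference between the clones was not shown. In bulk RNA, fewer cells with the transcript and less of it per cell cannot be told apart.

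The EGR1 call rests on the block and on single libraries. Blocked, it held in C1 without either WT library or C1 replicate 1 (adjusted p 0.00073 to 0.035) and was lost without C1 replicate 2 (-0.78, adjusted p 0.095), C2 replicate 1 (-1.10, 0.089) or C2 replicate 2 (-1.10, 0.078), where 1 residual degree of freedom is left. In such a fit, here and below, the group that lost a library is a single library assumed to vary like the other groups. For C2 the blocked value was called without WT replicate 2 (-0.86, adjusted p 0.049), C1 replicate 1 (-0.78, 0.016) or C1 replicate 2 (-0.77, 0.014), and moved to -0.30 without C2 replicate 1 and -1.22 without C2 replicate 2. The mean of the clones lost its call without C2 replicate 1 (-0.70, adjusted p 0.18) or C2 replicate 2 (-1.16, 0.062). Unblocked, the sign turned without WT replicate 1, to 0.60 in C1 and 0.63 in C2.

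Proliferation genes, like EGR1, were lower in replicate 2 than in replicate 1 of every group. The summed level of 12 such genes was 2450 and 342 CPM in C1 (replicates 1 and 2), 2840 and 888 in C2, and 2450 and 943 in WT. It was lowest in C1 replicate 2, as EGR1 was. Within number 1 the sum was not lower in the clones, although EGR1 was. PCNA (132 CPM in C1 and 187 in C2, against 215 in WT) was lower in both clones there. So were MCM2 (90.5 in C1 and 122 in C2, against 170 in WT) and MCM5. TOP2A, CCNB1, CDK1 (148 CPM in C1 and 149 in C2, against 101 in WT), CCNA2, BUB1 and AURKA were higher in both. MKI67, TYMS and RRM2 were lower than WT in C1 and higher in C2. The blocked median of the 12 in C1 was -0.69, with 11 of 12 negative and 1 called lower (TYMS, -0.65, adjusted p 0.048), and in C2 it was 0.03 with 0 called. Unblocked, 0 of the 12 were called in C1 or in C2. The part of proliferation in the EGR1 values was not tested.

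No other member passed the test against WT. Without the block, 0 of the 10 genes were called in C1, in C2 or in the mean of the clones, where edgeR called 0.0117%, 0.0117% and 0.198% of all genes. Blocked, C1 had 1 member lower and 0 higher, beside 7.03% of all genes called (4.07% lower and 2.96% higher). C2 had 0, beside 4.54% (2.59% lower and 1.94% higher), and the mean of the clones had 1 lower, beside 9.74% (5.63% lower and 4.12% higher). These shares lie near the background, and the counts say nothing particular of the members. At an unadjusted p under 0.05, 0 members stood out in C1 or C2 without the block, beside 7.87% and 6.75% of all genes, and 4 in C1 and 1 in C2 with it, beside 21.3% and 19% of all genes. DESeq2 called 0 members in C1 and in C2 without the block and, blocked, EGR1 in C1. The unblocked median of the 10 log2 differences was 0.02 for C1 and -0.10 for C2, beside -0.01 and 0.01 over all genes tested. Both comparisons use the same WT libraries.

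**Figure D2:**
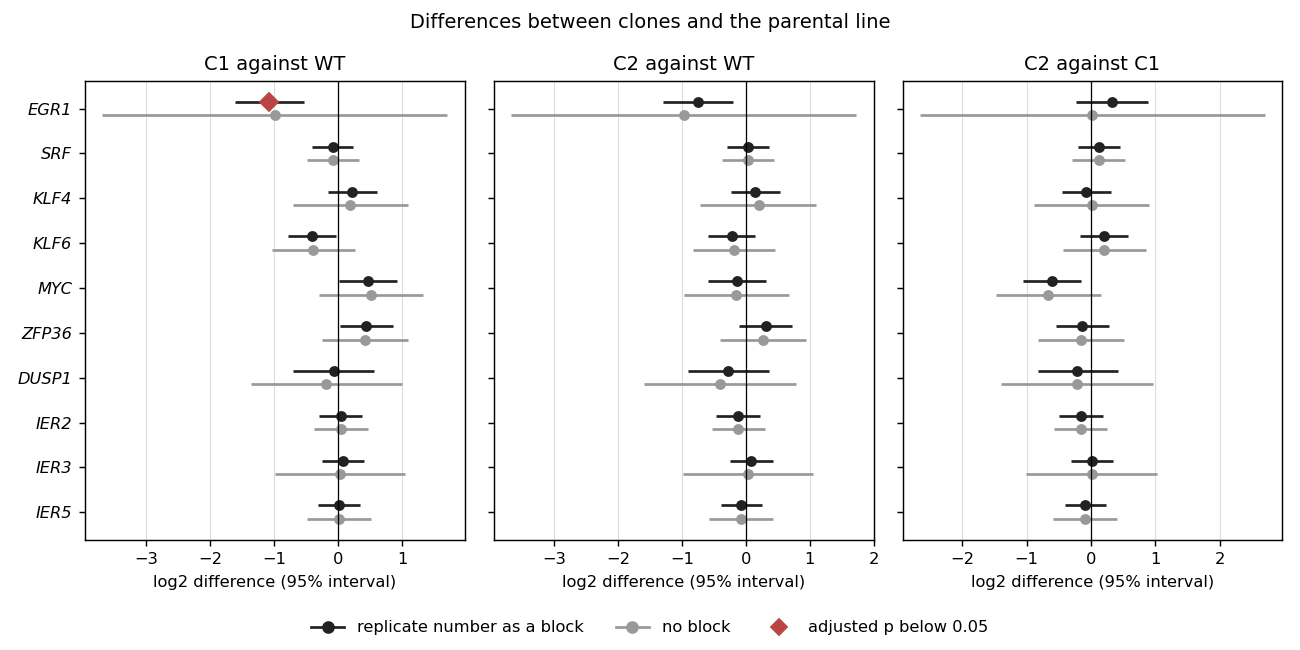
Fitted log2 differences (horizontal axis) with 95% intervals for C1 against WT, C2 against WT and C2 against C1, with the replicate number as a block (black) and without it (grey); red diamonds mark an adjusted p below 0.05. EGR1 in C1 with the block, at -1.08, is the 1 member marked, and its unblocked interval of -3.69 to 1.71 is the widest in that panel.

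SRF (ENSG00000112658.6), the factor through which serum reaches CArG boxes, was nearly level in all libraries. It had 76.8 and 84.6 CPM in C1, 91.4 and 83.9 in C2, and 82.2 and 88.8 in WT. The groups overlapped. Relative to WT, C1 stood at -0.08 on the log2 scale (95% interval -0.49 to 0.33, adjusted p 0.97 in edgeR). C2 stood at 0.04 (-0.37 to 0.45, adjusted p 1). These intervals exclude a change of 2-fold in either direction.

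The Krüppel-like factors, zinc finger regulators of epithelial growth and differentiation, did not pass the test either. KLF4 (ENSG00000136826.10) had 104 and 128 CPM in C1, 77.5 and 156 in C2, and 81.9 and 122 in WT. Its higher library was replicate 2 in every group, and the groups overlapped. The log2 difference was 0.19 in C1 (-0.71 to 1.09) and 0.20 in C2 (-0.71 to 1.10). KLF6 (ENSG00000067082.10), also studied as a tumour suppressor, had 53 and 38.5 CPM in C1, 63.4 and 42.2 in C2, and 61.1 and 58.9 in WT. Both C1 libraries lay below both WT libraries, which 17.6% of all genes did (35.1% parted in either direction), and C2 overlapped WT. The log2 difference of KLF6 was -0.39 in C1 (-1.03 to 0.26, adjusted p 0.83) and -0.18 in C2 (-0.83 to 0.46, adjusted p 0.99). Blocked, the value in C1 was -0.41 (adjusted p 0.18), and it was called only without WT replicate 1 (-0.64, adjusted p 0.025).

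MYC (ENSG00000136997.10), the growth-promoting helix-loop-helix factor, was raised in 1 library. It had 48.9 and 97.9 CPM in C1, 44.4 and 47.9 in C2, and 46 and 56.4 in WT. C1 replicate 2 was the high library, with 2 times the CPM of C1 replicate 1, and the other 5 lay between 44.4 and 56.4 CPM. The log2 difference was 0.52 in C1 (SE 0.34, -0.30 to 1.33, adjusted p 0.82) and -0.15 in C2 (SE 0.34, -0.96 to 0.67, adjusted p 1). Without C1 replicate 2 the value in C1 was -0.06, and 0.05 blocked. Without C1 replicate 1 it was 0.85 with the block (adjusted p 0.0057), where C1 is the high library alone and the spread comes from the other groups. C2 lay below C1 without overlap, as did 7.41% of all genes, while 7.21% lay above, with a log2 difference of -0.67 (-1.48 to 0.15, adjusted p 1) unblocked and -0.60 blocked (-1.05 to -0.15, adjusted p 1). In the blocked fit without C1 replicate 1, C2 against C1 was -1 for MYC, the only fit run that called it.

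ZFP36 (ENSG00000128016.4), or tristetraprolin, had 40.7 and 33.6 CPM in C1, 33.2 and 33.7 in C2, and 34.5 and 21 in WT. WT replicate 2 was the low library, and the other 5 lay between 33.2 and 40.7 CPM. The log2 difference was 0.42 in C1 (-0.25 to 1.09, adjusted p 0.82) and 0.27 in C2 (-0.40 to 0.94, adjusted p 0.96). In the blocked fit for C1 the value was 0.44 (adjusted p 0.20), 0.76 without WT replicate 1 (adjusted p 0.012) and 0.17 without WT replicate 2 (adjusted p 0.72).

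DUSP1 (ENSG00000120129.5), the MAP kinase phosphatase, had 9.55 and 12.7 CPM in C1, 8.63 and 10.5 in C2, and 6.65 and 18.6 in WT. The WT libraries were its lowest and its highest, and enclosed all 4 clone libraries. The log2 difference was -0.19 in C1 (-1.37 to 1.00) and -0.40 in C2 (-1.59 to 0.79), and against the WT library of the same number the clones were higher in number 1 (0.52 in C1 and 0.37 in C2) and lower in number 2 (-0.55 and -0.82). An antisense gene overlaps DUSP1, IER2 and IER3 each in GENCODE 29, and the strand setting of the counting is not given in the sources used here, so reads of the 2 strands cannot be told apart.

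The IER genes did not pass the test between clones and WT. IER3 (ENSG00000137331.11), a stress-induced regulator of cell survival, had 193 and 120 CPM in C1, 191 and 125 in C2, and 207 and 100 in WT. Replicate 1 was the higher library in every group, and the WT libraries enclosed those of both clones. Its log2 difference was 0.03 in C1 (-0.99 to 1.05) and 0.04 in C2 (-0.98 to 1.06). IER2 (ENSG00000160888.6), a nuclear regulator of transcription, had 56.2 and 53.1 CPM in C1, 46 and 51.8 in C2, and 53.2 and 52.9 in WT. Both C2 libraries lay below both WT libraries, by little, as did 17.3% of all genes (34.8% in either direction). Its log2 difference was 0.04 in C1 (-0.37 to 0.46) and -0.12 in C2 (-0.53 to 0.30). IER5 (ENSG00000162783.8), which acts with heat shock factor HSF1, had 119 and 93.5 CPM in C1, 100 and 98 in C2, and 116 and 93.8 in WT, and its groups overlapped. Its log2 difference was 0.02 in C1 (-0.48 to 0.51) and -0.08 in C2 (-0.57 to 0.42). Adjusted p for these 3 genes and for DUSP1 and KLF4 lay between 0.97 and 1 in both clones.

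Against the WT library of the same replicate number, 4 members were higher and 3 were lower in both C1 libraries, beside 31% and 31.1% of all genes. In both C2 libraries 0 members were higher and 3 were lower, beside 32.1% and 29.7% of all genes. Between the clones, edgeR called 0 of the 10 genes and 0% of all genes, with and without the block, and DESeq2 called 0 members, with 20 genes in all when blocked. At an unadjusted p under 0.05, C2 against C1 had 0 members unblocked, beside 0.356% of all genes, and 1 blocked, MYC, beside 3.75%.

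More of the 10 genes were called between replicate numbers than between clones and WT. In the fit with group and number, 2 of the 10 were lower and 2 higher in replicate 2, and the background was 24.7% of all genes called (12.2% lower and 12.5% higher). The members thus went in both directions, as all genes did.

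EGR1 had the largest difference of the 10. It had 3.24 CPM in replicate 2 and 20.8 in replicate 1 of C1, 6.07 and 18.4 in C2, and 7.94 and 39.9 in WT, which is 0.156, 0.330 and 0.199 times as much in replicate 2. The log2 difference was -2.19 (SE 0.21, 95% interval -2.66 to -1.73, adjusted p 3e-05), and it was lower in 3 of 3 groups. IER3 was also lower in 3 of 3 groups, at 0.623 times its replicate 1 level in C1, 0.653 times in C2 and 0.485 times in WT (log2 difference -0.78, SE 0.13, adjusted p 0.00074).

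KLF4 and DUSP1 ran the other way. KLF4 had 1.23, 2.02 and 1.49 times as much in replicate 2 as in replicate 1 of C1, C2 and WT (log2 difference 0.63, SE 0.14, adjusted p 0.0074), and lost its call without either C2 library (0.44, adjusted p 0.15 and 0.16). DUSP1 had 1.33, 1.22 and 2.80 times as much (log2 difference 0.72, SE 0.24, adjusted p 0.046). Its call was lost without either WT library (0.35, adjusted p 0.23 and 0.25) or either C2 library (0.95, adjusted p 0.14 and 0.13), and with no group term (0.75, adjusted p 0.087). MYC had a log2 difference of 0.47 (adjusted p 0.064), which was called without WT replicate 1 or 2 (0.56, adjusted p 0.013 and 0.02), by DESeq2 (0.048) and with no filter (0.0084). KLF6 had -0.37 (adjusted p 0.074) and was called without WT replicate 1 or 2 (-0.53 and -0.52, adjusted p 0.0054 and 0.0057). ZFP36 (-0.32), IER5 (-0.23), SRF (0.04) and IER2 (0.03) did not pass (adjusted p 0.16 to 0.91).

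**Figure D3:**
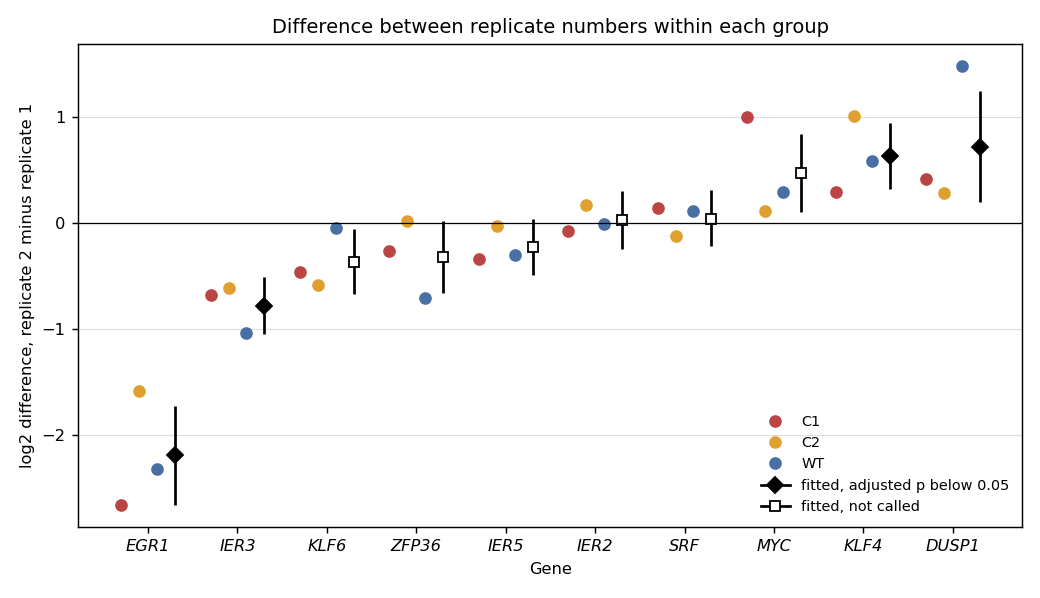
Log2 difference between replicate 2 and replicate 1 (vertical axis) for each gene, as coloured dots for C1, C2 and WT and as the fitted value with its 95% interval in black, filled where the adjusted p was below 0.05. EGR1 (-2.19) and IER3 (-0.78) lie below 0 and KLF4 (0.63) and DUSP1 (0.72) above it.

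FOS, the AP-1 early gene that the series title names, went with DUSP1 and not with EGR1 between the numbers: its log2 difference was 0.54 in replicate 2 (SE 0.17, adjusted p 0.037). It had 440 and 504 counts in C1, 215 and 347 in C2 and 310 and 469 in WT, and replicate 2 was the higher library in each group.

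Proliferation genes and handling stress genes also differed by number. All 12 proliferation genes had lower values in replicate 2 (log2 differences -2.97 to -1.52, median -2.02), and 5 were called. Of 9 heat and handling stress genes, 1 was called higher there (HSPH1, 0.92). In the same list 3 were called lower (HSPE1, -0.77, BAG3, -0.68, and HSPD1, -0.53). Over all genes 12.2% were called lower and 12.5% higher. What the number marks is not given in the sources used here, and the part of these differences in the early gene values was not tested.

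Among 34 other early genes, 32 were tested, and those that moved in C1 also went both ways. Unblocked, none of the 32 was called in either clone. At an unadjusted p under 0.05 in edgeR there were 7 in C1 (21.9%) and 4 in C2 (12.5%). Over all genes the shares were lower, at 7.87% and 6.75%. Blocked, C1 had 2 called higher and 3 lower, beside 2.96% and 4.07% of all genes. C2 had 0 of either, beside 1.94% and 2.59%. The mean of the clones had 1 higher and 4 lower, beside 4.12% and 5.63%. The blocked median of the 32 was 0.04 for C1 and -0.14 for C2, beside -0.01 and 0 over all genes tested.

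The orphan nuclear receptor NR4A1 had 4.47 and 4.58 CPM in C1, 4.42 and 6.5 in C2, and 12 and 8.92 in WT. All 4 clone libraries lay below both WT libraries. Taking each clone alone, 17.6% of all genes did so in C1 and 17.3% in C2. The share that did so in both clones was not counted. Its blocked log2 difference was -1.21 in C1 (SE 0.27, adjusted p 0.018) and -0.94 in C2 (SE 0.27, adjusted p 0.071). The antiproliferative gene BTG2 had a log2 difference of -1.5 in C1 (SE 0.35, adjusted p 0.02), at a low level of 0.989 and 0.635 CPM in C1 against 2.56 and 2.02 CPM in WT. KLF10, a TGF-beta-inducible Krüppel-like factor, fell by 0.65 in C1 (adjusted p 0.041), and it was also lower in replicate 2 (-0.52, adjusted p 0.018).

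The matricellular protein gene CTGF rose in C1 by 0.92 on the log2 scale (SE 0.22, adjusted p 0.023), with 16.4 and 17.4 CPM in C1, 14.9 and 11.6 in C2, and 8.89 and 9.02 in WT. HBEGF, a ligand of the EGF receptor named here after its values were seen, rose in C1 by 1.01 (SE 0.24, adjusted p 0.023), with 14.4 and 16.5 CPM in C1, 5.72 and 8.36 in C2, and 5.5 and 10.5 in WT. For HBEGF in C2 the blocked value was -0.15 (adjusted p 0.80), and C2 against C1 gave -1.17 (adjusted p 0.42). The relatives of EGR1, also chosen after their values were seen, were scarce: EGR2 had 6 and 1 counts in C1, 4 and 0 in C2, and 12 and 2 in WT, and EGR3 had at most 6 in any library.

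**Figure D4:**
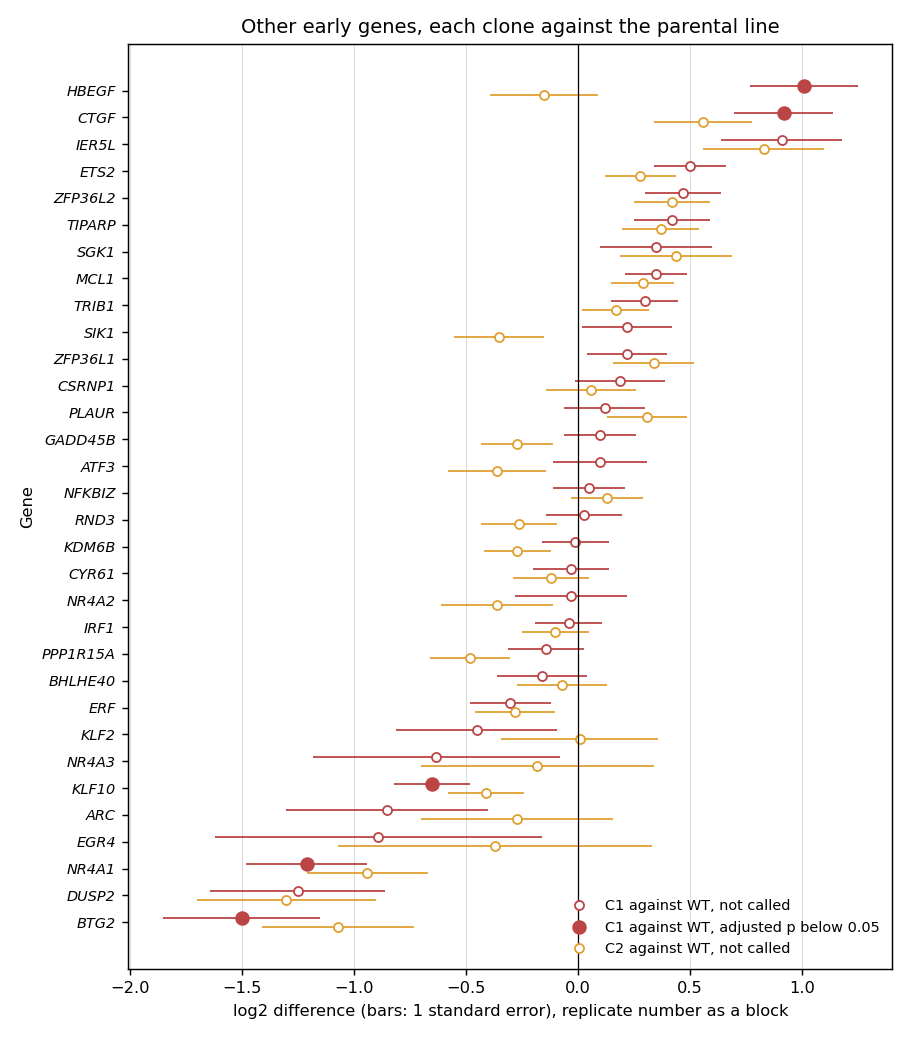
Blocked log2 differences (horizontal axis, bars of 1 standard error) of the 32 other early genes tested, in C1 against WT (red) and C2 against WT (orange), with filled symbols where the adjusted p was below 0.05. HBEGF (1.01) and CTGF (0.92) rose and KLF10 (-0.65), NR4A1 (-1.21) and BTG2 (-1.5) fell in C1, and no gene is filled in C2.

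Genes that work beside the members were described by count. Values of the lists are blocked. Unblocked, 0 genes of the SRF, EGR1, MYC and ZFP36 lists were called in C1, C2 or the mean of the clones. Over all genes the blocked fit called 7.03% in C1, 4.54% in C2, 9.74% in the mean of the clones and 24.7% between replicate numbers. Of 7 SRF cofactors tested, 0 were called in C1 or C2. ELK3, a ternary complex factor, was higher in the mean of the clones (0.43, SE 0.13, adjusted p 0.05). Of 15 cytoskeletal targets of SRF, C1 had 2 called higher and 1 lower, and C2 had 1 in each direction. The focal adhesion gene VCL rose in both clones, by 0.57 in C1 (adjusted p 0.028) and 0.73 in C2 (adjusted p 0.0096), with 281 and 216 CPM in C1, 295 and 257 in C2, and 189 and 147 in WT. The actin crosslinker FLNA fell in C1 (-0.71, adjusted p 0.0074) and C2 (-0.65, adjusted p 0.017), and the LIM protein gene FHL2 rose in C1 (0.69, adjusted p 0.014). FHL1 was 1.6 higher on the log2 scale in replicate 2 (adjusted p 4.4e-06).

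Of 6 partners and targets of EGR1, 0 were called in C1 or C2. The growth factor gene PDGFA was higher in the mean of the clones (0.85, SE 0.23, adjusted p 0.035), the zinc finger factor gene SP1 did not pass, at 0.36 in C1 (adjusted p 0.14) and 0.32 in C2 (adjusted p 0.23), and the EGR corepressor gene NAB2 had blocked values of -0.01 in C1 and -0.02 in C2. TGFB1 did not pass, at -1.06 in C1 (adjusted p 0.18) and -1.27 in C2 (adjusted p 0.14). Of 16 MYC target genes, none was called higher, and each clone had 1 called lower. CAD, the first enzyme of pyrimidine synthesis, fell in C1 (-0.58, adjusted p 0.04), and the spermidine synthase gene SRM fell in C2 (-0.77, adjusted p 0.036). NOP56, of the ribosome assembly machinery, was lower in the mean of the clones (-0.57, adjusted p 0.042) and in replicate 2 (-0.78, adjusted p 0.0037). The median of the 16 was -0.32 in C1 and -0.27 in C2. In replicate 2, 8 of the 16 were called lower and 0 higher (median -0.47), beside 12.2% and 12.5% of all genes. MYC itself had 0.47 there. Of 8 partners and antagonists of MYC and of 8 partners and relatives of ZFP36 tested, 0 were called in either clone.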

How the data were processed

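The authors deposited 1 table of raw counts of reads over genes, with a column for every library, which ends with 5 HTSeq totals that name no gene, per the file headers. Cutadapt 1.6, STAR 2.5.0a, HTSeq 0.5.3 and build hg19 are named in the submitters' processing notes. Reads in genes made up 77.6% to 78.7% of those listed, and the totals stayed out of library sizes and tests. Replicates were not copies of each other, with a chi-square of 90.7 to 119 per gene.

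The tools were R 4.3.3, edgeR 4.0.16, limma 3.58.1 and DESeq2 1.42.0. Genes passing filterByExpr were scaled by TMM and tested with edgeR's quasi-likelihood F test (robust), 6 libraries in 1 fit with 1 mean per group, with Benjamini-Hochberg adjustment over 17129 genes and calls below 0.05. Log2 CPM used a prior count of 2. The pipeline was run on simulated data without a difference between replicate numbers, so that run does not bear on the choice of block.

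Deviations of same-numbered libraries from their group means correlated across genes by 0.584 (WT and C1), 0.634 (WT and C2) and 0.701 (C1 and C2), and the replicate number was therefore used as a pairing, which no label states. With 2 libraries per group the deviations are mirror images, so a shared condition is not shown. With the block, 2 residual degrees of freedom remain.

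The members and gene lists were chosen with earlier results of these data known. All members are named, and from each list up to 4 genes, those called in most comparisons and then those with the largest difference; not every such gene is printed. HBEGF, EGR2, EGR3, SCGB1A1, SFTPB, PTPRC and the proliferation genes other than TYMS, RRM2, PCNA and MCM2 fall outside this rule. Sequences are from RefSeq GRCh38.p14. Alternatives were DESeq2, its size factors, no filter, the block and leaving out each library. The intervals printed come from edgeR's fit and reflect the spread between these libraries.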

Additional observations from a re-analysis of the deposited data

Results flagged for a closer look

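For 2 genes every C1 library lay above, and every C2 library below, the WT library of the same replicate number. Over all genes tested, 31% lay above WT in this way in both C1 libraries, and 29.7% lay below it in both C2 libraries. The share of all genes that did both was not counted, so the 2 genes are not shown to stand out. For MYC the log2 differences were 0.09 (number 1) and 0.80 (number 2) for C1, against -0.05 and -0.23 for C2. For IER2 they were 0.08 and 0.01 for C1, against -0.21 and -0.03 for C2. The direct test of C2 against C1 did not pass for either: edgeR gave -0.67 for MYC and -0.16 for IER2, each with an adjusted p of 1. The IER2 differences from WT are within 0.21 on the log2 scale, and that of MYC in C1 comes mostly from C1 replicate 2, since it was -0.06 without that library.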

How the results depend on the processing

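With the replicate block, 1 member (EGR1) was called in C1 and 1 in the mean of the clones, against 0 without it, and DESeq2 with the block, added after seeing the data, gave 1 and 1; the replicate block changed no other member's call. Leaving out each library gave 0 to 3 members in C1, 0 to 1 in C2, 0 to 1 for C2 against C1, 0 to 3 in the mean of the clones and 2 to 5 between replicate numbers, both fits counted together for the group comparisons. Over all genes the same blocked fits called 178 to 1776, 2 to 1756, 0 to 343 and 208 to 2277 in the group comparisons, the unblocked ones at most 3, and those between numbers 617 to 4849. Across all genes the block moved the calls to 1204, against 2 without it, in C1, to 777 against 2 in C2 and to 1669 against 34 in the mean of the clones; with no filter there were 296, 209 and 436, and DESeq2 called 270, 209 and 393. DESeq2's size factors, DESeq2 without the block and no filter changed no member's call in a group comparison. KLF4 for C2 against C1 turned to -0.07 with the block in edgeR and in DESeq2. Leaving out a library turned the sign of some differences; ranges below take both fits together. Within the blocked fits, EGR1 stayed negative in C1 (-1.48 to -0.78) and in the mean of the clones (-1.16 to -0.7). Ranges in C1 against WT covered DUSP1 (-0.74 to 0.75), EGR1 (-2.87 to 0.6), IER2 (-0.03 to 0.13), IER3 (-0.4 to 0.65), IER5 (-0.15 to 0.19), KLF4 (-0.07 to 0.51) and MYC (-0.06 to 0.95). Ranges in C2 against C1 covered DUSP1 (-0.56 to 0.08), EGR1 (-0.98 to 1.88), IER3 (-0.33 to 0.37), IER5 (-0.26 to 0.06), KLF4 (-0.62 to 0.43), KLF6 (-0.11 to 0.44) and ZFP36 (-0.43 to 0.11). Ranges in C2 against WT covered DUSP1 (-0.95 to 0.53), EGR1 (-1.98 to 0.63), IER3 (-0.39 to 0.66), IER5 (-0.24 to 0.09), KLF4 (-0.42 to 0.63), KLF6 (-0.5 to 0.06), MYC (-0.42 to 0.09), SRF (-0.08 to 0.14) and ZFP36 (-0.04 to 0.68). Ranges in the mean of the clones against WT covered DUSP1 (-0.85 to 0.64), EGR1 (-1.93 to 0.62), IER2 (-0.1 to 0.02), IER3 (-0.39 to 0.65), IER5 (-0.17 to 0.14), KLF4 (-0.11 to 0.51), MYC (-0.1 to 0.4) and SRF (-0.08 to 0.04). Ranges in replicate 2 against replicate 1 covered IER2 (-0.04 to 0.09) and SRF (-0.01 to 0.13). The causes were not tested. With 2 libraries per group, the unblocked intervals in C1 leave room for a 2-fold change of EGR1, IER3, DUSP1, KLF4, KLF6, MYC and ZFP36.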

Other observations

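EGR1 shared its pattern over the 6 libraries with genes outside the early response. The 3 protein-coding genes nearest to it, by root mean square difference of centred log2 CPM among 820 genes with a mean log2 CPM of at least 1 and at least 0.5 of the range of EGR1, were PKMYT1 (0.18), VSNL1 (0.20) and MNS1 (0.22). PKMYT1, a kinase that restrains entry into mitosis, had 376 and 64 counts in C1, 378 and 125 in C2, and 927 and 142 in WT. The neuronal calcium sensor gene VSNL1 had 198 and 33 counts in C1, 192 and 70 in C2, and 332 and 84 in WT. MNS1, a gene of cilia and meiosis, had 194 and 26 counts in C1, 187 and 44 in C2, and 348 and 82 in WT. The likeness is a description of 6 libraries.

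Antagonists of MYC and relatives of KLF4 and KLF6 were called between replicate numbers and in neither clone. Of 8 tested partners and antagonists of MYC, 2 were called higher and 1 lower in replicate 2, beside 12.5% and 12.2% of all genes. MXD1 (0.70, adjusted p 0.021) and MXI1 (0.65, adjusted p 0.003) were higher, and MXD3 (-2.04, adjusted p 0.00016) was lower, in edgeR. MXD3 had 1.67 CPM in replicate 2 and 11 in replicate 1 of C1, 3.62 and 9.55 in C2, and 3.3 and 14 in WT. Of 7 other tested KLF genes, 3 were called higher and 0 lower in replicate 2, beside the same shares of all genes. The 3 were KLF9 (0.50, adjusted p 0.024), KLF16 (0.50, adjusted p 0.031) and KLF3 (0.48, adjusted p 0.0099). The mRNA-binding protein genes HNRNPD (-1.12, adjusted p 2.9e-05) and KHSRP (-0.58, adjusted p 0.0047), which act on AU-rich elements as ZFP36 does, were lower in replicate 2.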
